A study of Mus musculus with 12 samples.

Results

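The genes described here are Ctss, Ctsd, Ctsl, Ctsb, Ctsk, Ctsc, Ctsz, Ctsh, Ctsa and Lgmn, which encode the lysosomal cathepsins S, D, L, B, K, C, Z, H and A and the protease legumain. They were taken by symbol from the count table, where they are 10 of 32761 genes. All 10 passed the low-count filter, which left 17965 genes for testing. The RNA came from corneal endothelium, the cell layer that covers the back of the cornea and keeps it clear by pumping fluid. Late mutants were homozygous for the Q455K allele of Col8a2 and at least 8 months old, and were set against late wild-type mice of the same age. Early mutants carried the same homozygous allele at 2 months or younger, and were set against early wild-type mice of that age. Each of the 4 groups held 3 biological replicates, and the number of animals behind a library was not given in the sources used here. Descemet membrane, on which these cells sit, is rich in collagen VIII, of which Col8a2 encodes a chain, and the allele is a mouse model of Fuchs endothelial corneal dystrophy. The wild-type mice are called c57 in the file headers, with no more said of their strain. Every late library was batch 2 and every early library batch 1. Age therefore cannot be told apart from batch, while genotypes of 1 age were compared within a batch.

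Lysosomal proteases are made as inactive precursors, tagged with mannose 6-phosphate, carried to the lysosome and activated in its acid interior, where they break down proteins taken up by the cell or delivered by autophagy. Cathepsins B, C, H, K, L, S and Z are cysteine proteases related to papain, cathepsin D is an aspartic protease, cathepsin A is a serine carboxypeptidase, and legumain cuts after asparagine. Most of them are found in many cell types, whereas cathepsin S is best known from macrophages, dendritic cells and B cells, and cathepsin K from bone-resorbing osteoclasts.

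Total counts per library ran from 19722598 to 39431676, at which 3 counts are worth 0.0773 to 0.132 CPM (a count relative to library size, scaled by the TMM factors of edgeR). Col8a1, Col8a2 and Slc4a11, which define corneal endothelium, were abundant in every library, and Col8a2 lay between 605 and 1740 CPM. The allele changes 1 amino acid, so this level does not check the genotype labels. Keratocyte markers were also abundant in all libraries, at a sum of 19500 to 33000 CPM over 12 genes. By the variance of counts, late wild-type replicate 1 lay 334 and 303 times the sampling noise from its group, whose other 2 libraries lay 72.5 times apart, and early wild-type replicate 1 lay 214 and 251 times from its own, against 76.9. By the correlation of log2 CPM the late wild-type pairs were about alike, at 0.904 to 0.909, and early wild-type replicates 1 and 2 were the most alike of their group, at 0.959, so these measures do not single out the same libraries. Results that change when 1 library is left out are given where they occur.

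Of the 10 protease genes 9 had a log2 fold change above 0, mutant over wild type, at each age, and cathepsins S and C moved most. The 10 were chosen with earlier results of these data known. The shares of all genes set beside them are therefore a description and no test of the family. Among late mice 4 of the 10 passed a Benjamini-Hochberg adjusted p of 0.05 in edgeR's quasi-likelihood test, namely Ctss, Ctsd, Ctsl and Ctsc, all higher in mutants, where 2.77% of all tested genes were called higher and 2.71% lower. In 8 of the 10 every late mutant library lay above every late wild-type library, as in 14.9% of all tested genes, and 7 had an unadjusted p under 0.05, as had 5039 of the 17965 genes tested. Among early mice Ctss and Ctsc passed, 2 of the 10, against 0.557% of tested genes called higher and 0.0334% lower, and 7 of the 10 did not overlap, against 10.1% of all tested genes with mutants above wild type. These counts moved with single libraries. With every library 983 of 17965 genes were called late. The late count of the 10 was 7 without late wild-type replicate 1 (3909 of 19241 genes called) or early wild-type replicate 2 (960 of 18523). It was 2 without late mutant replicate 1 (229 of 19233) or late wild-type replicate 2 (306 of 19111) or 3 (364 of 19222). DESeq2's Wald test also gave 7, with 2514 of 19157 genes called. With every library 106 of 17965 genes were called early. The early count of the 10 was 1 without early mutant replicate 1 (51 of 19378 genes called) or 2 (70 of 19373). It was also 1 without early wild-type replicate 1 (68 of 19345), 2 (79 of 18523) or 3 (75 of 19153). The median log2 fold change of the 10 was 0.88 late and 0.53 early, beside 0.00 late and -0.11 early over all genes tested. The early values therefore start from a median gene that lay 0.11 below 0. The authors' deposited table has 4 of the 10 at a q-value under 0.05 late, the same 4 genes. Early it has 3, Ctss, Ctsl and Ctsc. Among all genes listed there, 1265 of 16663 (7.59%) had such a q-value late and 331 of 17745 (1.87%) early. In these bulk libraries fewer cells of a type and less RNA per cell cannot be told apart.

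**Figure D1:**
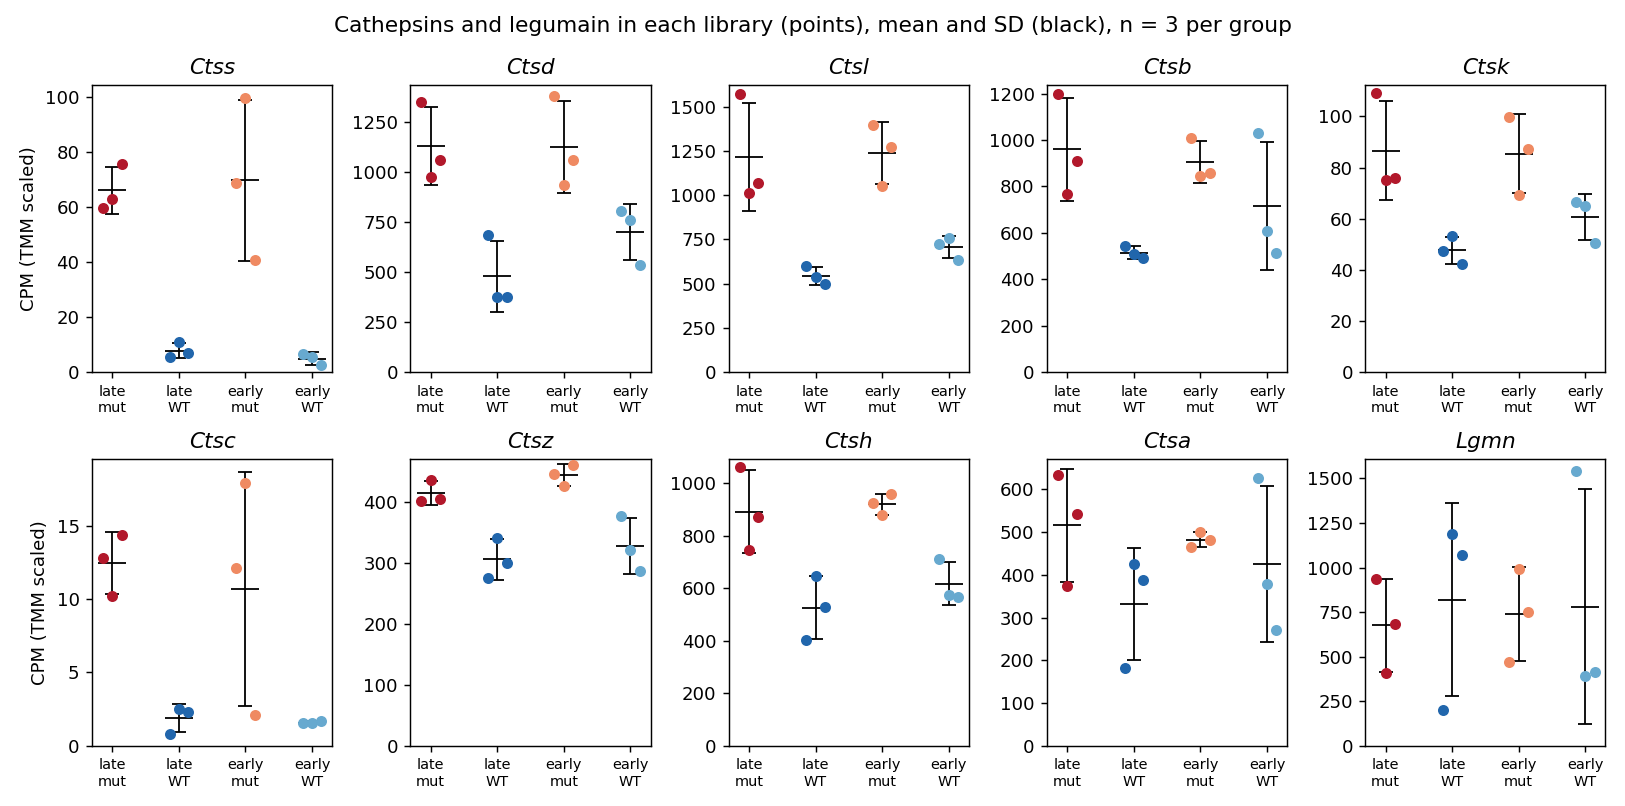
TMM-scaled CPM of each of the 10 genes (vertical axis, from 0, its own scale per gene) in the 12 libraries, grouped along the horizontal axis as late mutant, late wild type, early mutant and early wild type. Points are libraries and black bars are the mean and SD of 3 libraries. Ctss separates the genotypes widely at both ages, with mutants at 40.7 CPM or more and wild type at 10.8 CPM or less, while the 4 groups of Lgmn overlap throughout.

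Ctss and Ctsc had the largest fold changes of the 10. Cathepsin S degrades the invariant chain of class II antigen presentation in macrophages, dendritic cells and B cells, and unlike most cathepsins it stays active at neutral pH. Its transcript stood at 59.6, 62.8 and 75.5 CPM in the 3 late mutant libraries, against 5.34, 10.8 and 7.07 CPM in the late wild-type libraries. In early mutants it stood at 68.6, 99.4 and 40.7 CPM, against 6.70, 5.58 and 2.45 CPM in early wild type. At each age the lowest mutant library was well above the highest wild-type library. The log2 fold change was 3.09 ± 0.40 late (SE, 8.54-fold, edgeR adjusted p = 0.000316) and 3.83 ± 0.41 early (14.2-fold, adjusted p = 0.00013), and neither call was lost in any alternative tried. Ctss ranked 466th late and 41st early among the log2 fold changes of the 17965 genes tested.

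Cathepsin C removes dipeptides from the amino end of proteins and activates the granule proteases of immune cells. Ctsc was the scarcest of the 10. It stood at 12.8, 10.2 and 14.4 CPM in late mutants, against 0.82, 2.53 and 2.33 CPM in late wild type, and the groups did not overlap. The late log2 fold change was 2.72 ± 0.56 (SE, 6.61-fold, edgeR adjusted p = 0.011), and with limma-voom this call was lost (2.66, adjusted p = 0.181). In early mutants it stood at 12.1, 17.9 and 2.13 CPM, against 1.53, 1.54 and 1.68 CPM in early wild type. Early mutant replicate 3 was thus close to wild type, and the other 2 early mutant libraries were several times higher. The early log2 fold change was 2.76 ± 0.57 (6.76-fold, adjusted p = 0.0253). Of 20 alternatives 9 did not keep this early call, including fits without early mutant replicate 1 (adjusted p = 0.0974) or 2 (0.117) or early wild-type replicate 1 (0.138), 2 (0.1) or 3 (0.125). Without early mutant replicate 3 the early value was 3.25 (adjusted p = 0.000442), and with limma-voom it was 1.88 (adjusted p = 0.423).

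The 250 bases upstream of the start of Ctss and of Ctsc are shown because these genes moved most. They are from RefSeq on build GRCm38.p6, at chr3:95526536-95526785 and chr7:88277835-88278084, both on the plus strand, and capitals mark GAGGAA, the core read by the myeloid factor PU.1, or its reverse complement TTCCTC.
Ctss: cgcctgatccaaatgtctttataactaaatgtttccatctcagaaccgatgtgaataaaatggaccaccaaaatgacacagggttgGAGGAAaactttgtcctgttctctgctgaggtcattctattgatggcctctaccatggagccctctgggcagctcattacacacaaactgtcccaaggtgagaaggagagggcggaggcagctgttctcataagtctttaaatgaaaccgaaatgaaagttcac
Ctsc: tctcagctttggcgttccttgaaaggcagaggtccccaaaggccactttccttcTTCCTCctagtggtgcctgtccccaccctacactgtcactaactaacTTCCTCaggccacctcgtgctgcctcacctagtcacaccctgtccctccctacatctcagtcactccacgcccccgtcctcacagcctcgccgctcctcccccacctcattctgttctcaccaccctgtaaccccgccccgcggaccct
Ctss held 1 copy, with its first base at -164 from the start, and Ctsc held 2, at -196 and -149. Searched on both strands, the same letters stood in 23.3% of 32851 RefSeq promoter windows of this length. Of the 10 genes 8 were found in that table, with 10 windows since Ctsa and Lgmn have 2 each, and the letters stood in 3 of these 10 windows, the last being that of Ctsk, which held 2 copies. A match is a stretch of letters and not a shown binding site.

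Genes of myeloid cells moved with Ctss and Ctsc. Of 21 macrophage and myeloid markers 20 were tested, and 15 were higher in late mutants and 8 in early mutants by edgeR, with median log2 fold changes of 2.86 and 1.59. DESeq2 called 18 of them late and 10 early, and limma-voom 11 late and 6 early. Of all tested genes edgeR called 2.77% higher late and 0.557% early, with median log2 fold changes of 0.00 and -0.11. In either direction DESeq2 called 2514 of 19157 genes late and 250 of 17369 early. Likewise limma-voom called 1728 of 17965 late and 148 early. These totals also stand beside the DESeq2 and limma-voom counts of mutant against wild type in the lists that follow. The summed level of the 21 markers was 441 to 540 CPM in late mutants, against 46.6 to 74.4 CPM in late wild type. It was 268 to 623 CPM in early mutants, against 44.1 to 78.6 CPM in early wild type. Lyz2 alone made up a large part of these sums. It averaged 253 CPM in late mutants, against 31.0 CPM in late wild type, and 272 CPM in early mutants, against 26.1 CPM in early wild type. The sum therefore follows Lyz2 more than the scarcer markers. The lowest mutant sum, 268 CPM, belonged to early mutant replicate 3, the library that was also lowest of the mutants for Ctss and Ctsc. No marker of this list was at 0 in all 3 libraries of a group. The defining markers Cd68, Csf1r and Adgre1 were higher in late mutants (adjusted p = 0.00254, 0.00328 and 0.0113 by edgeR), and Ptprc was not past the threshold (adjusted p = 0.0993). Early, Cd68 was higher (adjusted p = 0.00122), while Csf1r (adjusted p = 0.625) and Adgre1 (0.666) were not past the threshold, and Ptprc, the pan-leukocyte antigen, was at 0.492 to 0.742 CPM in early mutants and 0.15 to 3.53 CPM in early wild type. Of 8 lymphocyte markers 3 were tested, and none passed by edgeR, DESeq2 or limma-voom, with 0 late and 1 early at an unadjusted p under 0.05 and a sum of at most 5.41 CPM in any library.

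Per length, Ctss equalled 10.1% to 10.6% of the summed FPKM (the count relative to gene length and library size) of the 21 myeloid markers in late mutants, against 8.00% to 11.4% in late wild type, so these ranges overlapped. It equalled 7.90% to 13.9% in early mutants, against 4.75% to 7.01% in early wild type, where they did not. The abundant Lyz2 is among these 21 markers, so the share does not weigh them evenly. The part of the myeloid level in the difference of Ctss or Ctsc was not tested.

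**Figure D2:**
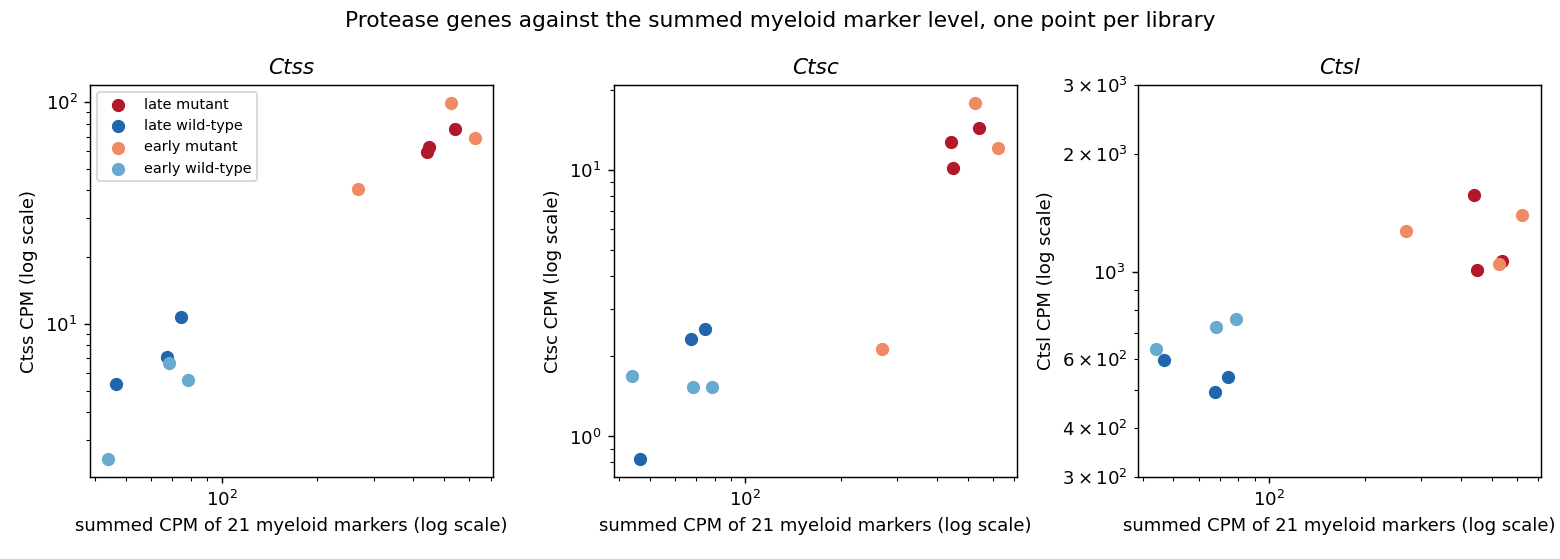
CPM of Ctss, Ctsc and Ctsl (vertical axes, log scale) against the summed CPM of 21 myeloid markers (horizontal axis, log scale), 1 point per library, coloured by group. Lyz2 makes up a large part of the sum. Mutant libraries lie at 268 CPM of markers or more and wild-type libraries at 78.6 CPM or less, and early mutant replicate 3, at 268 CPM, is the mutant point nearest to wild type for Ctss and Ctsc but not for Ctsl.

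Genes of the class II pathway, in which cathepsin S acts, were partly higher as well. Of 9 tested genes of a class II presentation list, 4 rose late by edgeR (H2-Aa, Cd74, H2-Eb1 and H2-Ab1) and 3 rose early (H2-Aa, Cd74 and H2-Eb1). DESeq2 called 5 of the list late and 4 early, and limma-voom 2 late and 2 early. Cd74, which encodes the invariant chain itself, averaged 84.3 ± 10.9 CPM in late mutants, against 20.9 ± 6.07 CPM in late wild type (SD, n = 3 each; 4.04-fold, edgeR adjusted p = 0.00775). Early mutants averaged 91.1 ± 50.3 CPM, against 18.7 ± 8.98 CPM in early wild type (4.88-fold, adjusted p = 0.00452). The median log2 fold change of the list was 1.92 late and 0.22 early, beside 0.00 late and -0.11 early for all genes.

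Ctsd and Ctsl, the abundant endopeptidases of the lysosome, passed among late mice. Cathepsin D is the main aspartic protease of the lysosome, and cathepsin L a broadly expressed cysteine endopeptidase. Ctsd stood at 1350, 976 and 1060 CPM in late mutants, against 683, 377 and 374 CPM in late wild type. Late wild-type replicate 1 was the highest of its group and still below every late mutant. The log2 fold change was 1.24 ± 0.29 (SE, 2.36-fold, edgeR adjusted p = 0.0208). Ctsl stood at 1570, 1010 and 1070 CPM in late mutants, against 598, 539 and 496 CPM in late wild type, a log2 fold change of 1.16 ± 0.25 (2.23-fold, adjusted p = 0.0128). Both late calls were lost without late mutant replicate 1 (log2 fold changes 1.09 for Ctsd and 0.94 for Ctsl), late wild-type replicate 2 (1.09 and 1.15) or late wild-type replicate 3 (1.09 and 1.10), and that of Ctsd also without late mutant replicate 3 (1.36). The largest adjusted p among these was 0.0949 for Ctsd and 0.0836 for Ctsl.

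Among early mice the same genes did not overlap between genotypes and did not pass. Ctsd stood at 1380, 932 and 1060 CPM in early mutants, against 802, 759 and 537 CPM in early wild type (log2 fold change 0.68 ± 0.29, edgeR adjusted p = 0.511). Ctsl stood at 1400, 1050 and 1270 CPM in early mutants, against 724, 760 and 636 CPM in early wild type (0.81 ± 0.25, adjusted p = 0.244). The early value of Ctsl passed with DESeq2's Wald test and with limma-voom, and has a q-value of 0.00934 in the authors' deposited table. Passing at 1 age alone does not show that the ages differ, and the test of that difference is given further on.

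The 250 bases upstream of Ctsd and Ctsl, on the minus strand of GRCm38.p6 at chr7:142387828-142388077 and chr13:64370521-64370770 (RefSeq), are shown beside those of Ctss and Ctsc. Here the capitals mark CACGTG, the E-box that lysosomal regulators of the MiT/TFE family (TFEB, TFE3, MITF) can read, which is its own reverse complement.
Ctsd: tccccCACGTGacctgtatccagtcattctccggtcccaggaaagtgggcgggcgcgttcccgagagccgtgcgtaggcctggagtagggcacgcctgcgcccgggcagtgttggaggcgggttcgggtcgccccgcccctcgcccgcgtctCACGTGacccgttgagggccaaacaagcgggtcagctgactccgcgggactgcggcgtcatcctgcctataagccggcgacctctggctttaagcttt
Ctsl: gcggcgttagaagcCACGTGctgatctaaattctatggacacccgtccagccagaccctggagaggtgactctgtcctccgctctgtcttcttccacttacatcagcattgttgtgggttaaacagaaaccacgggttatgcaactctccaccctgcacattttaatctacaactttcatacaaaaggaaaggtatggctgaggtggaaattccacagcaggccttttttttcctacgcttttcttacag
Ctsd held 2 copies, at -245 and -98 from the start, and Ctsl held 1, at -236. CACGTG also stood in 1 of the 2 windows of Ctsa and of Lgmn, in all 4 of 10 windows, against 6.02% of the 32851 windows. The longer TCACGTG, which overlaps it and was searched on both strands like the others, was found in 3 of the 10 (of Ctsa, Ctsd and Lgmn) against 3.13% of windows. TGANTCA, the AP-1 motif, was in none of the 10 and in 6.75% of windows. None of the windows of Ctss, Ctsc, Ctsk and Ctsz held CACGTG. Ctsb and Ctsh had no entry in the table. Whether the transcript starts that set these windows are the ones used in these libraries was not tested.

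Genes of the MiT/TFE factors and of their control did not pass the threshold at either age. Of 11 tested none passed by edgeR, with 2 at an unadjusted p under 0.05 late and 2 early. DESeq2's Wald test called 2 late and 0 early, and limma-voom called 1 late and 0 early. The list's median log2 fold change was -0.11 late and 0.08 early.

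Ctsb, Ctsk and Ctsh were higher in every late mutant library than in any late wild-type library without passing the threshold. Cathepsin B acts both as an endopeptidase and from the carboxyl end of proteins. Ctsb stood at 1200, 768 and 911 CPM in late mutants, against 544, 510 and 492 CPM in late wild type (log2 fold change 0.89 ± 0.28 SE, edgeR adjusted p = 0.0604). In early mice it stood at 1010, 847 and 860 CPM in mutants, against 1030, 607 and 513 CPM in wild type. Early wild-type replicate 1 was above every early mutant, and the groups overlapped (0.34 ± 0.27, adjusted p = 0.676).

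Cathepsin K cleaves triple-helical collagen and serves osteoclasts in bone. Ctsk stood at 109, 75.2 and 75.8 CPM in late mutants, against 47.5, 53.1 and 42.4 CPM in late wild type (log2 fold change 0.86 ± 0.26 SE, edgeR adjusted p = 0.0533). It stood at 99.9, 69.4 and 87.1 CPM in early mutants, against 66.7, 65.1 and 50.5 CPM in early wild type (0.49 ± 0.26, adjusted p = 0.588). Neither age overlapped, though early mutant replicate 2 was close to the highest wild-type library. The 5 osteoclast markers summed to 3.06 to 4.34 CPM in late mutants, against 1.40 to 2.17 CPM in late wild type, with no overlap, and to 1.15 to 2.35 CPM in early mutants, against 1.78 to 3.38 CPM in early wild type. Ocstamp was at 0 in every library of late mutants, late wild type and early mutants, and Calcr in every library of late wild type and early mutants. None of the 3 osteoclast markers tested passed by edgeR, DESeq2 or limma-voom, with 0 at an unadjusted p under 0.05. Of 12 keratocyte markers 4 passed as higher and 1 as lower in late mutants by edgeR, and 3 passed as higher in early mutants. Kera, Lum and Prelp, proteoglycans of the corneal stroma, passed at both ages by edgeR. DESeq2 called 7 of the 12 late and 3 early, and limma-voom 3 late and 2 early. The keratocyte sum was 22100 to 33000 CPM in late mutants, against 21400 to 27000 CPM in late wild type, and 23400 to 26600 CPM in early mutants, against 19500 to 29900 CPM in early wild type. The part of either marker list in the values of Ctsk and the other genes was not tested.

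Cathepsin H trims proteins from the amino end. Ctsh stood at 1060, 746 and 869 CPM in late mutants, against 403, 645 and 530 CPM in late wild type (log2 fold change 0.76 ± 0.25 SE, edgeR adjusted p = 0.0719). Its early mutant libraries were even, at 923, 878 and 958 CPM, against 712, 574 and 565 CPM in early wild type (0.58 ± 0.25, adjusted p = 0.516). The groups did not overlap at either age. In the late comparison the call of Ctsb was gained in 8 of 20 alternatives, that of Ctsk in 6 and that of Ctsh in 5, so these genes lie near the threshold.

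Cathepsin Z, which removes single residues from the carboxyl end, had an even transcript, with a coefficient of variation of 4.62% among late mutants and 3.96% among early mutants. Ctsz stood at 401, 436 and 405 CPM in late mutants, against 275, 341 and 300 CPM in late wild type. It stood at 445, 425 and 460 CPM in early mutants, against 377, 320 and 286 CPM in early wild type. Mutants were above wild type in every library of each age, and the log2 fold change was 0.44 ± 0.23 both late (SE, edgeR adjusted p = 0.211) and early (adjusted p = 0.588).

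**Figure D3:**
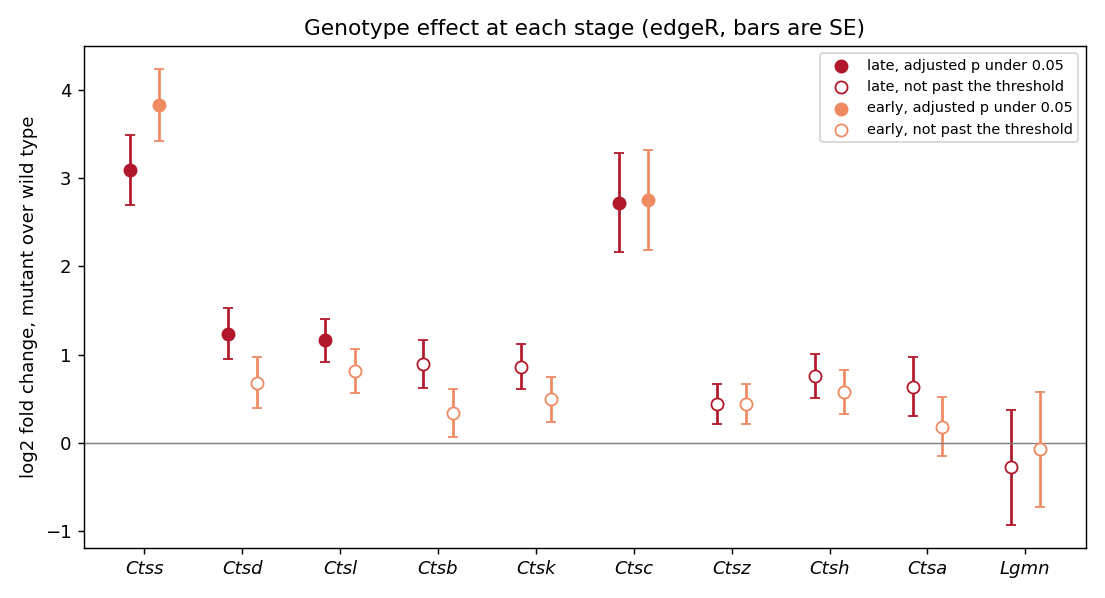
Log2 fold change of mutant over wild type (vertical axis) for each of the 10 genes (horizontal axis), late beside early, from edgeR's fit of all 12 libraries. Bars are SE, and filled points passed an adjusted p of 0.05. Ctss and Ctsc lie between 2.72 and 3.83 at both ages, the other 8 genes between -0.28 and 1.24.

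Ctsa and Lgmn did not separate by genotype. Cathepsin A protects neuraminidase and beta-galactosidase in a complex within the lysosome. Ctsa stood at 634, 373 and 542 CPM in late mutants, against 182, 425 and 389 CPM in late wild type (log2 fold change 0.64 ± 0.34 SE, edgeR adjusted p = 0.219). It stood at 466, 500 and 481 CPM in early mutants, against 627, 378 and 272 CPM in early wild type (0.18 ± 0.33, adjusted p = 0.848). The groups overlapped at both ages, and early wild type spread more than early mutants. Its partners Neu1, Glb1 and Galns had log2 fold changes of 0.50 to 0.70 late and 0.38 to 0.67 early, and none of the 3 passed by edgeR, DESeq2 or limma-voom, with 2 at an unadjusted p under 0.05 late and 1 early.

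Legumain activates several cathepsins by cutting their precursors. Lgmn stood at 934, 408 and 684 CPM in late mutants, against 198, 1190 and 1070 CPM in late wild type, and the log2 fold change was -0.28 ± 0.65 (SE, edgeR adjusted p = 0.813). It stood at 470, 993 and 753 CPM in early mutants, against 1540, 389 and 413 CPM in early wild type (-0.08 ± 0.65, adjusted p = 0.973). In each wild-type group 1 library differed from the other 2 by more than 2-fold, replicate 1 being low among late and high among early wild type. Its SE was the largest of the 10, and its sign turned when 1 of several libraries was left out.

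Levels per length ranked the 10 genes among themselves. By deposited FPKM, the highest averages in late mutants were those of Ctsd at 624 ± 56.7, Ctsh at 565 ± 42.5 and Ctsl at 360 ± 59.4 (SD, n = 3), against 247 ± 124, 298 ± 35.1 and 147 ± 30.9 in late wild type. Early mutants had Ctsd at 554 ± 99.3 and Ctsh at 522 ± 10.1 FPKM, against 373 ± 74.5 and 377 ± 19.8 in early wild type. The ranges of Ctsd and Ctsh overlapped in all 4 groups, and Ctsd was above Ctsh in 3 of 3 late mutant libraries but in 1 of 3 early mutant libraries. Lgmn averaged 350 ± 103 FPKM in late mutants and 372 ± 229 in late wild type, where it ranked first only through 2 libraries. By group mean, Ctsb, Ctsa, Ctsk, Ctss and Ctsc held ranks 6 to 10 in this order in every group. Single libraries did not always keep the order of the means. Ctsb was above Ctsa in 1 of 3 late wild-type libraries, and Ctsl above Lgmn in 1 of 3 late mutant libraries. Ctsk was above Ctss in 2 of 3 libraries of late mutants and in 2 of 3 of early mutants. Ctsk and Ctss averaged 58.1 ± 8.68 and 48.8 ± 7.74 FPKM in late mutants with overlapping ranges, against 28.9 ± 3.99 and 5.0 ± 1.27 in late wild type, where they were apart. Ctsc was last, at 2.45 ± 0.282 FPKM in late mutants and 0.324 ± 0.137 in late wild type.

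Together the 10 genes held 0.415% to 0.498% of all FPKM in late mutant libraries, against 0.233% to 0.261% in late wild type. They held 0.385% to 0.417% in early mutants, against 0.255% to 0.344% in early wild type. The ranges did not overlap at either age. Of the sum of the 10, Lgmn made up 7.86%, 32.5% and 32.5% in the late wild-type libraries, the widest spread of any share in 1 group.

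**Figure D4:**
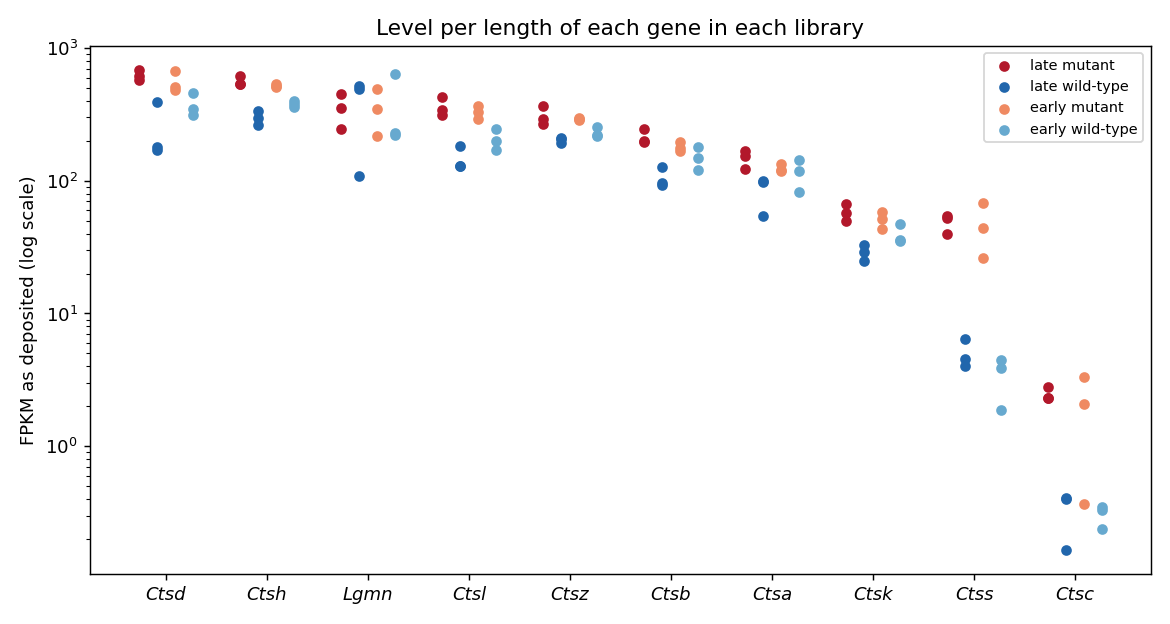
Deposited FPKM (vertical axis, log scale) of the 10 genes (horizontal axis, ordered by their mean over the 12 libraries), 1 point per library, coloured by group. Ctss lies beside Ctsk in mutants and far below it in wild type, and Ctsc is lowest in every library.

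Ctss differed in genotype response from 8 of the other 9 genes, and less clearly from Ctsc. Ctss was taken as the numerator with its fold change already known, so this describes how far it departs from its family and is no independent evidence that it is the gene to single out. The log2 ratio of Ctss to another gene, from FPKM with 0.1 added, was compared between genotypes over both ages by an exact two-sided permutation of genotype labels within age. The mean difference, mutant minus wild type, was 2.48 for the ratio to Ctsd, 2.49 to Ctsl and 2.83 to Ctsb. It was 2.80 to Ctsk, 2.79 to Ctsh, 2.99 to Ctsa, 3.02 to Ctsz and 3.37 to Lgmn. The ratio to Ctsc moved least, by 1.21, and this value depends on the amount added, being 2.02 with 1 added and 0.92 with nothing added. All 9 had an exact p of 0.005, the smallest that the 400 regroupings allow, and 0.005 after adjustment over the 9. With 0.1 added, 6 of 6 mutant libraries lay above every wild-type library of their age for each ratio. With nothing added this held for the 8 ratios other than that to Ctsc. For the ratio to Ctsc it then held in 3 of 6 mutant libraries, while the permutation test still passed (adjusted p = 0.035). The lack of overlap with Ctsc and the size of that difference thus rest on the amount added. With TMM-scaled CPM in place of FPKM the ratio to Ctsc moved by 0.97 (adjusted p = 0.02).

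**Figure D5:**
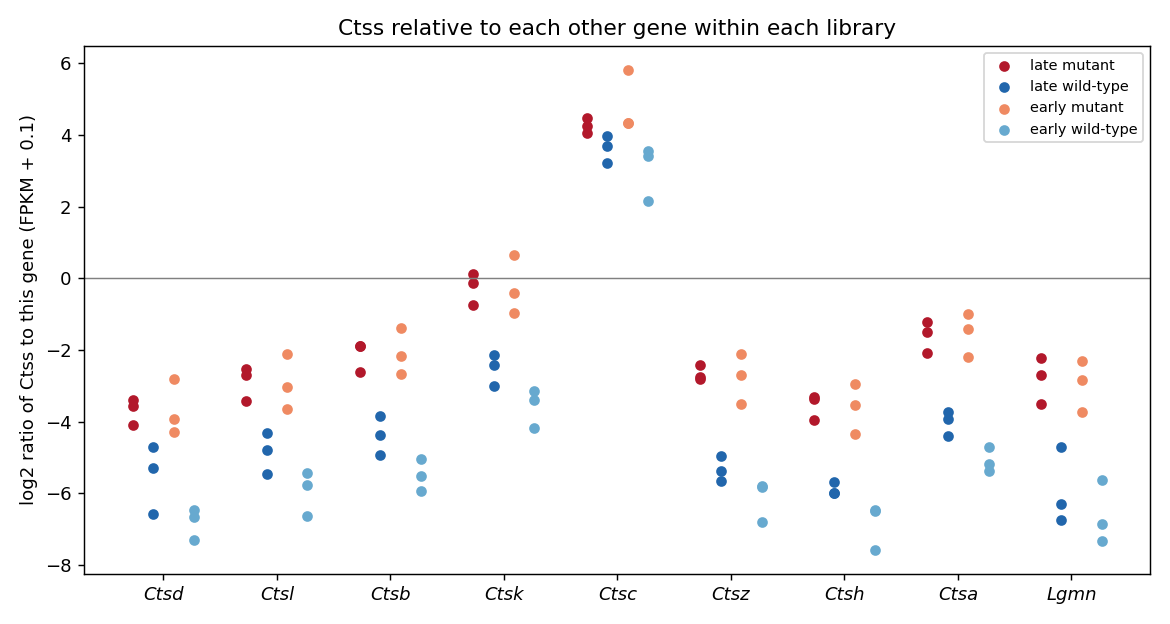
Log2 ratio of the FPKM of Ctss to that of each other gene, 0.1 added to both (vertical axis), for the 9 other genes (horizontal axis), 1 point per library, coloured by group, with the line at equal levels. With 0.1 added the mutant points lie above the wild-type points of their age in every column, by 1.21 on average for Ctsc and by 2.48 to 3.37 for the others.

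No difference between the ages was found in the genotype response of any of the 10. In edgeR's test of the late effect minus the early effect 0 of the 10 passed, with 0 at an unadjusted p under 0.05 and 0 by DESeq2 or limma-voom. Of all genes 0.00557% passed by edgeR, while DESeq2's Wald test called 329 of 19157 and limma-voom 91 of 17965. The log2 difference was -0.74 ± 0.52 for Ctss (SE, adjusted p = 0.631), 0.56 ± 0.40 for Ctsd (adjusted p = 0.642) and 0.56 ± 0.39 for Ctsb (adjusted p = 0.624). A p that misses the threshold does not show that the effects at the 2 ages were equal.

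Within a genotype no gene of the 10 passed between the ages. In late against early mutants 0 of the 10 passed by edgeR, DESeq2 or limma-voom, with 0 at an unadjusted p under 0.05 and log2 fold changes from -0.13 to 0.22; DESeq2 gave Ctsc no adjusted p here. Of all genes 0% passed by edgeR, while DESeq2's Wald test called 42 of 4179 and limma-voom 299 of 17965. Ctss averaged 66.0 ± 8.40 CPM in late mutants and 69.6 ± 29.3 CPM in early mutants (SD, n = 3 each). In late against early wild type 0 passed likewise, with 0 at an unadjusted p under 0.05 and 0% of all genes by edgeR (DESeq2 called 0 of 32493 and limma-voom 0 of 17965), and the values ran from -0.55 to 0.66. Ctss was at the upper end, at 0.66 ± 0.38 (SE), with 7.74 ± 2.79 CPM late and 4.91 ± 2.20 CPM early. Ctsd and Ctsb were at the lower end, at -0.55 ± 0.29 and -0.47 ± 0.27. Ctsl alone of the 10 did not overlap, with 496 to 598 CPM in late wild type and 636 to 760 CPM in early wild type (edgeR adjusted p = 1.0), where 2.12% of all genes did not overlap in this direction.

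The pattern of Ctss across the 12 libraries was closest to that of Lyz2, macrophage lysozyme. Likeness was the root mean square difference of log2 CPM, each gene centred on its own mean. Genes with a mean of at least 5 CPM were compared, 9465 in all, and those with clone or gene model names were not ranked. Lyz2 lay at 0.258, followed by Ms4a7, the immediate early gene Egr1 and the complement genes C1qc and C1qb; Lyz2, C1qb and C1qc are also on the myeloid list. Of the other 9 protease genes, Ctsc came first, at rank 28, and Ctsl next, at rank 242. Ctsl was closest to Fam114a1 at 0.13, then Galnt14, Sparc, Rnase4 and Sec61a1, and Ctsk stood at rank 13 and Ctsd at rank 36. Ctsd was closest to Yipf2 at 0.119, then Tmem109, Dkk3, Wnt11 and Tmbim1, with Ctsl at rank 39. These distances describe 12 libraries that share batches and groups, and carry no test.

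In a list of protease inhibitors, made up of cystatins, Ctla2 genes and serpins, 2 of 10 tested genes rose and 1 fell late by edgeR, and 1 rose early. DESeq2 and limma-voom each called 3 of the 10 late and 1 early. Ctla2a, which encodes a protein related to the propeptide of cysteine cathepsins, averaged 17.3 ± 2.85 CPM in late mutants, against 0.505 ± 0.161 CPM in late wild type (SD, n = 3 each; edgeR adjusted p = 3.13e-05), and rose early too (adjusted p = 8.6e-06). Ctla2b is its near copy, so reads of the pair may be split unevenly and the level of Ctla2a is uncertain. Cst6, a secreted cystatin that blocks legumain and several cathepsins in human, rose 3.54-fold late (15.7 ± 3.12 against 4.44 ± 0.819 CPM, adjusted p = 0.018). Serpinb9, known as an inhibitor of granzyme B and not of cathepsins, fell 2.51-fold late (82.3 ± 21.5 against 206 ± 44.4 CPM, adjusted p = 0.0365). The list's median log2 fold change was 0.83 late and 0.55 early.

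Genes that sort these enzymes to the lysosome did not pass. Of 16 tested genes none passed by edgeR at either age, 3 had an unadjusted p under 0.05 late and 1 early, and DESeq2 called 1 and limma-voom 2 of them late, with 0 early by both. The late and early medians were 0.25 and 0.28. Psap, the precursor of the saposins, was at 239 ± 53.1 CPM in late mutants, against 132 ± 35.1 CPM in late wild type (SD, n = 3 each; edgeR adjusted p = 0.0734). Of the 5 other cathepsins and related proteases tested none passed by edgeR or DESeq2, 1 had an unadjusted p under 0.05 late and 0 early, and limma-voom called 2 late and 0 early. Among them Tpp1, a lysosomal tripeptidyl peptidase, had late and early log2 fold changes of 0.63 and 0.42, and Ctso 0.66 and 0.08.

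Markers of other eye tissues also differed in the same libraries. Photoreceptor markers summed to 40.8 to 213 CPM in late mutants, against 26.9 to 74.0 CPM in late wild type, and to 103 to 243 CPM in early mutants, against 13.4 to 34.9 CPM in early wild type, with 0 of 8 past the threshold late and 2 early by edgeR. All 8 had a log2 fold change above 0 at each age, with medians of 1.73 late and 2.86 early. An unadjusted p under 0.05 was found for 5 late and 7 early. DESeq2 called 4 late and 5 early, and limma-voom 0 at each age. Melanocyte markers summed to 83.9 to 117 CPM in late mutants, against 10.6 to 126 CPM in late wild type. They summed to 91.0 to 229 CPM in early mutants, against 30.2 to 44.0 CPM in early wild type. Of the 7, 5 had a log2 fold change above 0 late (median 0.36) and 6 early (median 2.42). None passed the threshold by edgeR, with 0 late and 6 early at an unadjusted p under 0.05. DESeq2 called 0 late and 2 early, and limma-voom 0. Lens markers were higher in late mutants for 2 of 7 by edgeR, with sums of 243 to 361 CPM, against 93.8 to 159 CPM in late wild type. DESeq2 called 3 of the 7 late, and limma-voom 3. Early, none of the 7 had a log2 fold change above 0 (median -1.14) and none passed by edgeR, DESeq2 or limma-voom, with 3 at an unadjusted p under 0.05 and sums of 104 to 205 CPM in early mutants, against 137 to 605 CPM in early wild type. Corneal epithelial markers summed to 30.9 to 134 CPM in late mutants, against 12.8 to 313 CPM in late wild type. They summed to 27.1 to 293 CPM in early mutants, against 18.7 to 79.1 CPM in early wild type. Of the 7, 4 had a log2 fold change above 0 late (median 0.01) and 6 early (median 1.53). None passed the threshold by edgeR, DESeq2 or limma-voom, with 1 at an unadjusted p under 0.05 at each age. Of 10 corneal endothelial markers none passed by edgeR, with 4 late and 1 early at an unadjusted p under 0.05; DESeq2 called 1 and limma-voom 2 late, and both 0 early. Their sum was 40600 to 70900 CPM in late mutants, against 79800 to 100000 CPM in late wild type, with no overlap. It was 56700 to 69200 CPM in early mutants, against 58100 to 112000 CPM in early wild type. The late sum did not speak for each marker, since 4 of the 10 had a log2 fold change above 0 late (median -0.20) and 5 early (median 0.15). Of the defining markers, Slc4a11 averaged 4850 CPM in late mutants, against 2940 CPM in late wild type. Col8a1 averaged 1310 against 917 CPM and Col8a2 889 against 938 CPM. The part of these tissues in the values of the 10 genes was not tested.

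Some counts could be affected by reads shared with neighbouring genes, in a direction that was not tested. In the GENCODE annotation of another build, Ctsb overlaps Fdft1, Ctsz overlaps Nelfcd, and Ctsa overlaps Pltp and Neurl2, each on the opposite strand. These 4 neighbours reached at most 28.3 CPM for Fdft1, 59.0 for Nelfcd, 70.1 for Pltp and 8.59 for Neurl2 in any library, below the lowest value of the gene they overlap. Their own counts could be affected by the same overlap, so these levels set no limit on its effect. Ctsd also overlaps the protein-coding Gm49369 and Ctss the pseudogene Hmgb1-ps5, both on the same strand. Ctsl overlaps Gm49230, a pseudogene on the same strand, and the antisense gene Gm47123, and Ctsc the lincRNA Gm26522 on the opposite strand. Whether reads are shared with these was not tested. The kit keeps the strand, but whether the counting used it was not given in the sources used here.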

How the data were processed

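Corneal endothelial RNA of 12 libraries was extracted with TRIzol and made into strand-keeping paired-end libraries, per the labels' protocols. Build GRCm39 and the tools fastp, HISAT2, HTSeq and DESeq2 appear in the submitters' processing notes, while annotation and strand setting were not given in the sources used here. Whole-number counts per gene were deposited by the authors, as were FPKM, which equal the count over the total count and gene length. Their comparison tables hold, per the file headers, DESeq2-normalized mean signal, fold change as a ratio, log2 fold change, p-value and q-value.

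Counts were tested with edgeR 4.0.16 (R 4.3.3), by TMM scaling, filterByExpr and the quasi-likelihood F test in 1 robust fit of 12 libraries with 8 residual degrees of freedom and a biological coefficient of variation of 0.464. P-values were adjusted by Benjamini-Hochberg over 17965 genes at a threshold of 0.05, and 14796 genes were removed by the filter. SE come from the F statistic. The fit was tested on simulated data. Group levels are TMM-scaled CPM as mean ± SD. Ratios used FPKM with 0.1 added and an exact permutation test (Python 3.11.15). Promoter windows are from RefSeq (GRCm38.p6), with 8 of the 10 genes matched.

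The 10 genes and all lists were chosen with earlier results of these data known. Other genes named come from the 4 of smallest late p in each list, those that passed early and the 5 closest to Ctss, Ctsl and Ctsd. Markers named are the defining ones and, chosen after their values were seen, Ocstamp, Calcr and the keratocyte genes that passed at both ages. Replicate pairs differed by 57.5 to 334 times the sampling noise. Same-numbered replicates of the 2 genotypes did not deviate together (correlations of -0.088 to 0.081), so numbers were not treated as pairs of animals. Alternatives were DESeq2 size factors, other low-count filters, DESeq2 1.42.0, limma-voom (limma 3.58.1), the compared libraries alone, a replicate block, other ratio scales and leaving out each library.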

Additional observations from a re-analysis of the deposited data

How the results depend on the processing

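The late count of genes called among the 10 was 4; it was 7 with a filter of 5 CPM in 3 libraries, 7 with DESeq2's Wald test and 2 to 7 when 1 library was left out. With both late wild-type replicate 1 and early wild-type replicate 2 left out, an alternative chosen after seeing the data, it was 7 late and 1 early. The early count was 2; it was 1 with the compared libraries alone, 1 with the replicate block, and 1 to 2 when 1 library was left out. The block uses numbers that were not shown to pair animals; under it the early call of Ctsc was lost (adjusted p = 0.118). The late log2 fold change of Lgmn turned to 0.107 without late mutant replicate 2 and 0.097 without late wild-type replicate 2, and ranged from -0.617 to 0.107 over all fits with libraries left out. Its early value turned to 0.388 with limma-voom, 0.233 with the replicate block, 0.173 and 0.901 when early mutant replicate 1 or early wild-type replicate 1 was left out (range -0.375 to 0.901), and that of Ctsa to -0.05 without early wild-type replicate 3 (range -0.05 to 0.589). The cause was not tested. Over all genes, the late count was 983 with every library, 3909 without late wild-type replicate 1, 229 without late mutant replicate 1 and 2514 by DESeq2; without late wild-type replicate 1 the median gene moved to 0.27. The early count was 106, and 51 to 179 when 1 library was left out. With the filter of 5 CPM in 3 libraries 954 of 10318 genes were called late. With both named wild-type libraries left out 4371 of 18335 were called late and 125 early. The compared libraries alone gave 128 of 15501 early, and the replicate block 106 of 17965. All 9 ratios of Ctss kept their direction and passed in every alternative. Depth limits Ctsc most, whose count was 25 in its lowest library.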
